A study of Mus musculus with 6 samples.

Results

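The calcium/calmodulin-dependent kinases (CaMKs) were examined as a family of 10 genes: Camk1, Camk1d, Camk1g, Camk2a, Camk2b, Camk2d, Camk2g, Camk4, Camkk1 and Camkk2. They were chosen by name, and all 10 of the 41386 genes in the deposited table that carry these names had enough reads to be tested. RNA-seq had been run on hippocampus of 56-day-old C57BL/6 mice (C57BL/6J in the study's methods) in 3 sham libraries, from mice operated on without a filament, and 3 ischemia/reperfusion (I/R) libraries, from mice whose middle cerebral artery was blocked for 1.5 h and then reperfused for 24 h. Per the study's methods the mice were male, only the hippocampus on the operated side was taken, and each library held RNA of 3 pooled hippocampi, so errors are spreads between pools. The total count was between 37493042 and 44788547 per library. Markers of dentate granule cells, of which 5 of 5 were tested, were present in every library. The 6 choroid plexus markers summed to 32.6 CPM (counts scaled to library size) in I/R replicate 3 and 36.4 in sham replicate 1, against 1588 to 4397 in the other libraries.

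CaMKs turn a rise in intracellular calcium into phosphorylation. Calcium-loaded calmodulin releases the kinase domain from its own inhibitory segment. The multimeric CaMKII, built from subunits encoded by Camk2a, Camk2b, Camk2d and Camk2g, can then phosphorylate itself and stay active after calcium has dropped. The alpha and beta subunits are abundant at excitatory synapses of the hippocampus, where the enzyme is needed for long-term potentiation, while the delta and gamma subunits are made in many tissues. CaMKI and CaMKIV act as monomers and are switched on by the upstream kinases CaMKK1 and CaMKK2, which gives the cascade its order.

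Of the 10 CaMK genes, 8 fell in I/R and none rose. Calls required a Benjamini-Hochberg adjusted p below 0.05 over all genes tested by edgeR's quasi-likelihood test, together with a change of more than 1.2-fold up or down. Among the 18569 genes tested, 41.8% were called, 21.8% higher and 19.9% lower. The median log2 fold change of the CaMK genes was -1.25, and that of all tested genes was 0.03. In each of the 8 genes that fell, the 3 I/R libraries lay below the 3 sham libraries, a separation in that direction seen in 28.1% of all tested genes. In these bulk libraries, fewer cells of a type and less RNA per cell cannot be told apart.

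The genes differed widely in level. On the FPKM scale, which corrects for gene length, Camk2a stood at 2563 ± 33.2 in sham (SD, n = 3) and ranked 3 among all genes of the table. Camk2b followed at 621 ± 21.1, and Camk1d, Camkk1, Camkk2 and Camk2g came next at 130, 96.6, 77.3 and 56.2. The sham libraries of Camk1, Camk1g and Camk2d, with means of 23.3, 20.9 and 20.1 FPKM, overlapped one another and could not be ordered. Camk4 had the lowest mean at 17.0 ± 1.17 FPKM, and its highest sham library lay above the lowest of Camk2d. The lengths behind the FPKM were not always those of the table's length column. With the length column, Camk4 came 7 of 10 and Camk2d last, while Camk2a and Camk2b kept the highest places. After I/R, Camk2a was at 719 ± 356 FPKM and ranked 58, Camk1 and Camk2g lay above Camkk2 by mean, and Camk2d lay above Camk1g.

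**Figure D1:**
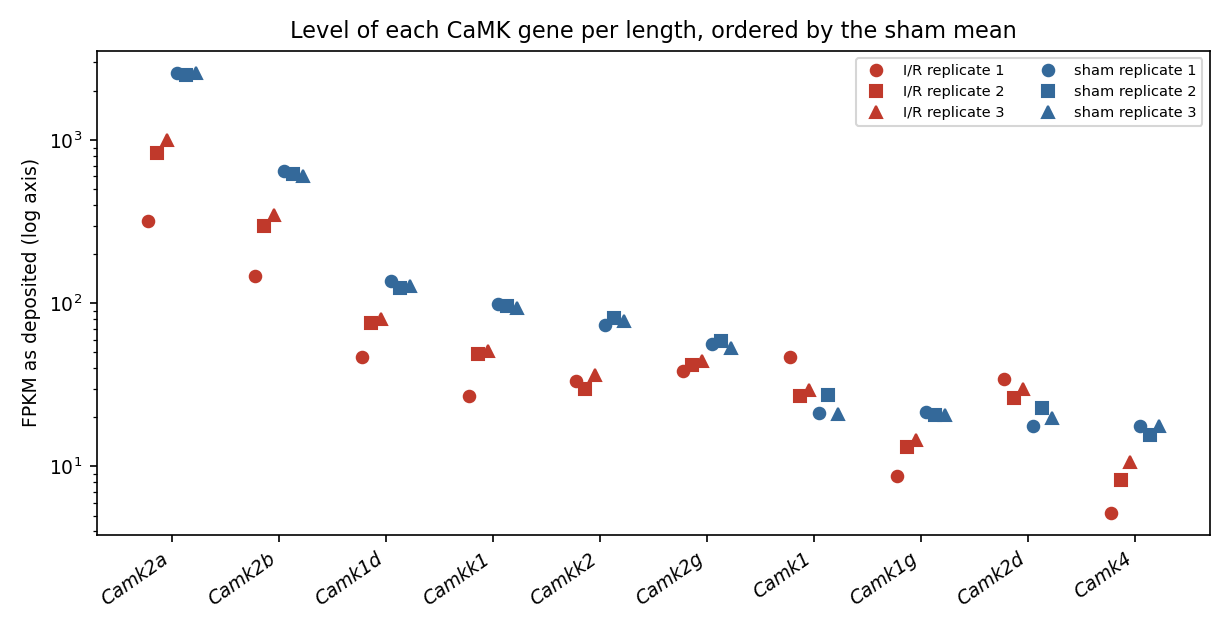
FPKM as deposited (log axis) of each CaMK gene in 3 sham (blue) and 3 I/R (red) libraries, with genes ordered by their sham mean and 1 point per library. Camk2a has the highest level in every library, and only Camk1 and Camk2d have a higher mean in I/R than in sham.

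Camk2a (chromosome 18, 58293837 to 58358881 on the BALB/cJ assembly of the deposited table) encodes the alpha subunit of CaMKII, the main form in forebrain excitatory neurons. Its level was 5675, 5664 and 5747 CPM in the sham libraries, and 564, 1594 and 1919 CPM in I/R replicates 1, 2 and 3. The sham libraries were nearly equal, whereas the I/R libraries were spread over more than 3-fold and all lay far below them. Camk2a fell to 23.9% of its sham level, or by 2.07 ± 0.41 (SE) on the log2 scale (edgeR, adjusted p = 0.0054). Leaving out I/R replicate 1, the lowest library, gave -1.70, and the gene was still called.

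Camk2b (chromosome 11, 2930774 to 3021627) encodes the beta subunit, which also binds actin in dendritic spines. Its levels were 1562, 1517 and 1465 CPM in sham and 285, 623 and 737 CPM in I/R. Replicate 1 was again the lowest, and the groups did not overlap. It fell by 1.47 ± 0.31 (SE) in log2 units (edgeR, adjusted p = 0.00766).

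Camk2g (chromosome 14, 13296257 to 13359466), the gamma subunit gene, had the smallest fall among the 8. It stood at 224, 236 and 212 CPM in sham and at 122, 144 and 152 CPM in I/R. The I/R libraries were close together and lay below all sham libraries, a log2 difference of -0.68 ± 0.11 (SE; edgeR, adjusted p = 0.00235). It was the only one of the 8 not called at a fold change over 2, a rule under which 4.67% of all tested genes were lower.

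Camk2d (chromosome 3, 124482320 to 124731061), the delta subunit gene, did not follow the other CaMKII genes. Its levels were 47.0, 62.0 and 52.9 CPM in sham and 73.4, 60.3 and 68.9 CPM in I/R. I/R replicate 2 lay below sham replicate 2, so the groups overlapped. Camk2d differed by 0.32 ± 0.12 (SE) in log2 units and was not called (edgeR, adjusted p = 0.0689). Its side of the threshold changed in 5 of 20 alternatives. Camk2d was called as higher with library size only as scaling, at 0.58 (edgeR, adjusted p = 0.00927), where 34.1% of all tested genes were higher, and without sham replicate 2, at 0.43 (edgeR, adjusted p = 0.0454), where 15.2% were. It was also called as higher on log2 FPKM plus 1 and plus 0.1, as were 32.9% and 33.9% of all genes, and by the unadjusted p that the study states, as were 25.5%.

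Of the RefSeq promoter table (GRCm38.p6), 8 windows matched 7 of the CaMK genes by symbol. The 250 bases before the start of Camk2d and of Camk2b are shown because Camk2b fell while Camk2d, another CaMKII subunit gene, was not called. Capitals mark GGGCGG, the GC box, on either strand; overlapping matches are counted separately.
Camk2d, chr3:126596701-126596950, plus strand: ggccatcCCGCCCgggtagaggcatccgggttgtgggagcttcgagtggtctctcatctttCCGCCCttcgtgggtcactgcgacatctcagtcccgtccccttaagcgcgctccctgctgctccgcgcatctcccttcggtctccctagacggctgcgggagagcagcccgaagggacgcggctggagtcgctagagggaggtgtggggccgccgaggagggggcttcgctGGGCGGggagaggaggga
Camk2b, chr11:6065749-6065998, minus strand: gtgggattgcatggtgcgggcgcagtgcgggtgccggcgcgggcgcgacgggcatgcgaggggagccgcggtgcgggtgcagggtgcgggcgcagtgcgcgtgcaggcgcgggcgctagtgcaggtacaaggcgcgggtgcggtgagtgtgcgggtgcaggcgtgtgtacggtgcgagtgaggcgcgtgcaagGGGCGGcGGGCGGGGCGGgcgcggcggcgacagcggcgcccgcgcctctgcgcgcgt
Both windows held 3 GC boxes, which 32.7% of all 32851 windows of this length held at least once, and their GC content was 68.4% for Camk2d and 78.4% for Camk2b. Neither held TGACGTCA, the cyclic AMP response element (1.55% of windows), its half-site TGACG (17.8%), the E-box CACGTG (6.02%) or TATAAA (12.4%). Among the other CaMK windows that were read, which exclude Camk2a, Camk4 and Camk2g, that of Camk1 and that of Camkk1 each held 1 TGACG. These counts describe letters in a window and not the binding of a factor.

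The CaMKII subunits made up different shares of CaMKII transcripts in the groups, a measure within each library that library scaling cannot move. Camk2a made up 78.1%, 78.3% and 79.3% of the summed CaMKII FPKM in sham and 59.2%, 69.5% and 70.2% in I/R. Camk2b made up 19.1% ± 0.589 in sham and 25.5% ± 1.47 in I/R. Camk2d made up 0.536%, 0.711% and 0.606% in sham and 6.39%, 2.18% and 2.09% in I/R, and Camk2g 1.72% ± 0.0922 in sham and 4.59% ± 2.23 in I/R. All 4 shares separated the groups without overlap, Camk2a lower and the others higher in I/R (exact two-sided permutation p of 0.1 for each, adjusted 0.1, the smallest that 3 against 3 libraries allow). The difference for Camk2d was 2.94 percentage points, and 1.52 without I/R replicate 1, while that for Camk2g was 2.86 and 1.58. Together the 4 genes held 0.679% to 0.691% of all counted reads in sham and 0.12%, 0.258% and 0.305% in I/R replicates 1, 2 and 3.

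**Figure D2:**
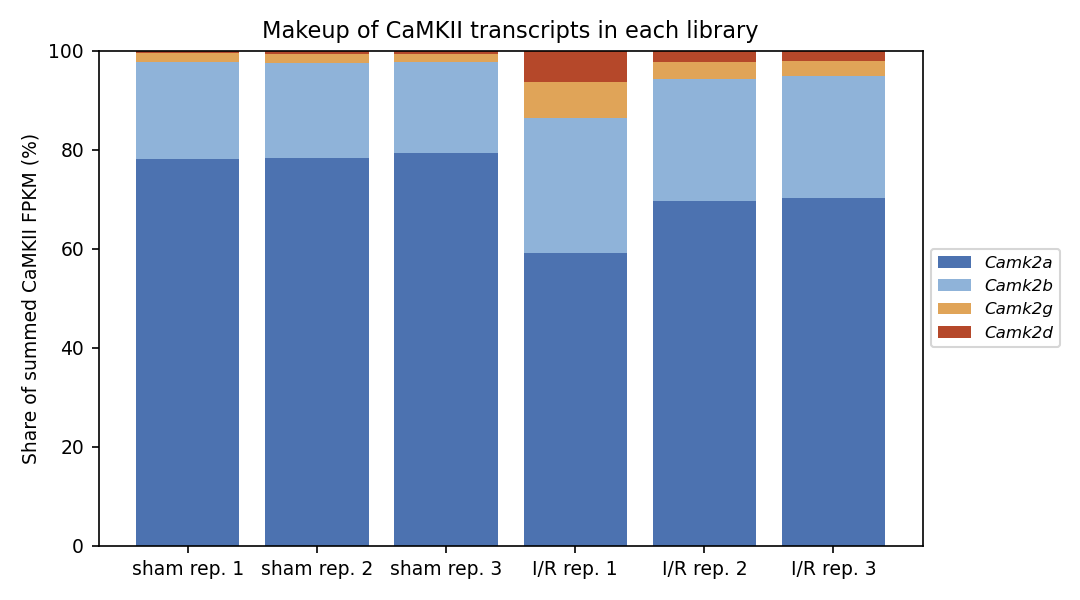
Share (%) of each CaMKII gene in the summed CaMKII FPKM of a library, stacked to 100%, for 3 sham and 3 I/R libraries. Camk2a takes 78.1% to 79.3% in sham and 59.2% to 70.2% in I/R, and the Camk2d segment is widest in I/R replicate 1 at 6.39%.

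In all, 6 within-library ratios of CaMK genes were compared between the groups. The log2 ratio of Camk2d to Camk2a was -7.00 ± 0.203 in sham and -4.43 ± 1.05 in I/R, a difference of 2.58. The ratios of Camk2g and Camk2b to Camk2a differed by 1.56 and 0.67. The ratio of Camk1 to Camk4 was higher in I/R by 1.67, and that of Camk1d to Camk1g was lower by a small margin, at 2.47 ± 0.0536 in I/R and 2.63 ± 0.0389 in sham. These 5 ratios did not overlap between the groups (exact permutation p of 0.1, adjusted 0.12 over the 6). The ratio of Camkk1 to Camkk2 overlapped and differed by -0.01 (exact permutation p of 1).

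The upstream kinases both fell. Camkk1 (chromosome 11, 71222137 to 71245493) went from 294, 290 and 278 CPM in sham to 64.0, 126 and 132 CPM in I/R, with replicate 1 lowest. It fell by 1.42 ± 0.25 (SE) in log2 units (edgeR, adjusted p = 0.00334). Camkk2 (chromosome 5, 122491815 to 122538560), whose product also phosphorylates the energy sensor AMPK, went from 124, 140 and 132 CPM to 45.01, 43.5 and 53.3 CPM. In contrast to Camkk1, its I/R libraries were close together and replicate 1 was not the lowest. Its log2 difference, -1.48, had the smallest SE of the family at 0.10 (edgeR, adjusted p = 0.000215).

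Of the monomeric kinases, Camk4 and both Camk1d and Camk1g fell. Camk4 (chromosome 18, 30148438 to 30379260), a mainly nuclear kinase that phosphorylates CREB, stood at 238, 213 and 236 CPM in sham and 55.6, 95.5 and 124 CPM in I/R. All I/R libraries lay below all sham libraries, and Camk4 fell by 1.32 ± 0.25 (SE) in log2 units (edgeR, adjusted p = 0.0049). Camk1d (chromosome 2, 2266862 to 2686515) went from 346, 319 and 322 to 94.5, 164 and 174 CPM, which was -1.19 ± 0.21 (SE) in log2 units (edgeR, adjusted p = 0.00388). Camk1g (chromosome 1, 192894067 to 192919250), which encodes a membrane-anchored CaMKI of neurons, was the least abundant by CPM and went from 34.8, 33.8 and 33.6 to 11.3, 18.4 and 20.5 CPM, which was -1.03 ± 0.20 (SE) in log2 units (edgeR, adjusted p = 0.00525). These genes shared the order of the I/R libraries, with replicate 1 lowest and replicate 3 highest.

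Camk1 (chromosome 6, 111356082 to 111365901), the widely expressed CaMKI gene, was not called. Its levels were 37.1, 48.2 and 36.8 CPM in sham and 64.8, 40.8 and 44.3 CPM in I/R, so that only replicate 1 lay above all sham libraries. The log2 difference was 0.30 ± 0.19 (SE; edgeR, adjusted p = 0.252), and 0.06 without I/R replicate 1. Camk1 overlaps Ogg1 on the opposite strand, and the use of strand in counting is not stated. Ogg1 held 187 to 365 counts per library, against 1267 to 2952 for Camk1. Of the 50-base stretches of the CaMK transcripts in GENCODE M21, 0.253% for Camk2a, 0.106% for Camk2b and 0% for the other 8 genes also lay in transcripts of another gene.

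**Figure D3:**
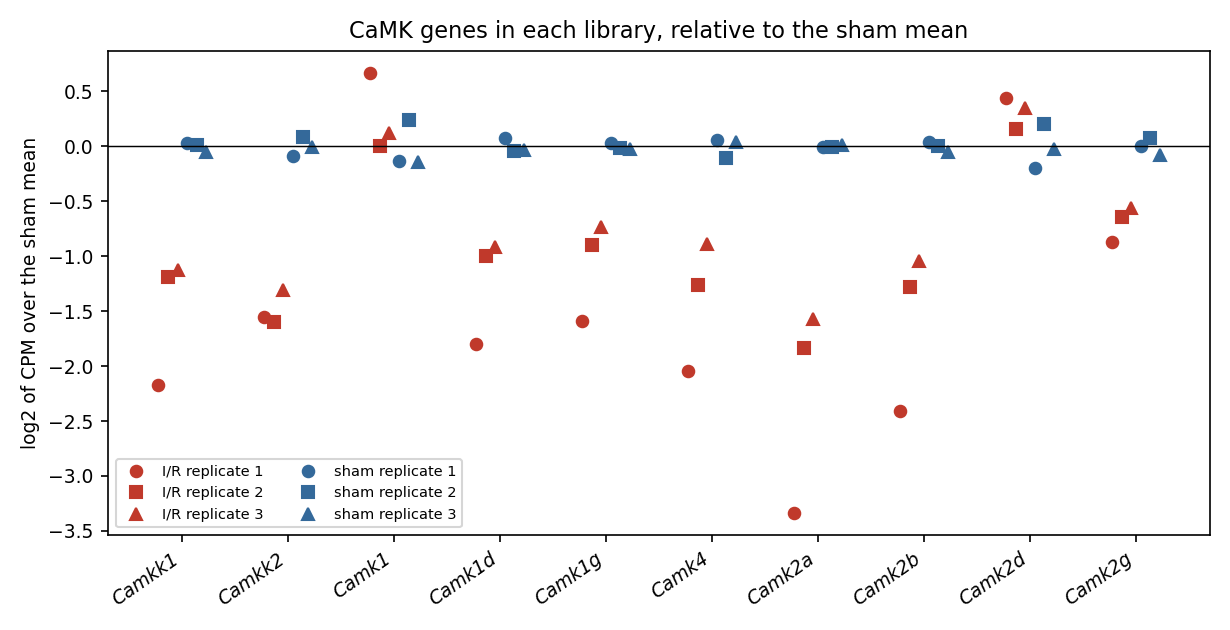
Log2 of the CPM of each CaMK gene over its sham mean, with 1 point per library (sham blue, I/R red, replicate by shape). I/R replicate 1 is lowest in 7 of the 8 genes that fell, with Camkk2 as the exception, and highest in Camk1 and Camk2d.

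Neuronal markers moved with these genes. Of the 8 neuronal markers listed, 7 were named in the table and tested, 7 of 7 fell, and none was at 0 in all libraries. Their summed level was 1839 to 3565 CPM in I/R and 6075 to 6353 CPM in sham, with I/R replicate 1 the lowest library. The call held in all 20 alternatives for Tubb3, Snap25 and Syt1. It held in 18 for Eno2, in 16 each for Rbfox3 and Nefl, and in 9 for Nefm. Markers of CA1 pyramidal cells (4 of 4 fell, median log2 fold change -1.17), CA3 pyramidal cells (3 of 3, -1.06) and dentate granule cells (5 of 5, -2.496) were lower as well, whereas those of interneurons had a median of -0.38, with 4 of 5 called as lower. Among glial and vascular lists, 3 of 6 microglial markers were higher and 2 lower (median 0.36), 2 of 6 astrocyte markers higher and 3 lower (-0.12), 2 of 6 oligodendrocyte markers lower (-0.27), 4 of 4 endothelial markers higher (0.85) and 4 of 4 markers of infiltrating myeloid cells higher (3.53). Of 7 striatal markers 1 was higher and 2 were lower (-0.21), and of the 6 choroid plexus markers none was called (-0.68). Among all tested genes 19.9% were lower and 21.8% higher, so counts near those shares in these small lists are description only. The part of these cell types in the CaMK results was not tested. Without the 2 libraries low in choroid plexus markers, the same 8 of 10 CaMK genes were called as lower, against 13.1% of all genes tested in that fit.

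Set against the 7 neuronal markers within each library, the CaMK genes fell into different patterns. The mean log2 FPKM of the markers, relative to the sham mean, was -1.23, -0.60 and -0.52 in I/R replicates 1, 2 and 3. These markers were of neurons in general, with log2 fold changes from -1.30 to -0.29, against a median of -2.496 for dentate granule cell markers. Ratios to them depend on that choice of reference, and other references were not tested. The markers fell, so a gene with no change in FPKM also comes out higher relative to them. All tested genes had a median log2 fold change of 0.26 on log2 FPKM plus 0.1. The log2 ratio to the markers differed (I/R minus sham) by -1.21 for Camk2a, -0.54 for Camk2b, -0.46 for Camkk1, -0.36 for Camk4 and -0.20 for Camk1d. Camk2d, Camk1 and Camk2g were higher relative to the markers, by 1.37, 1.31 and 0.35. Without I/R replicate 1 the difference was 0.85 for Camk1, 0.18 for Camk2g and 1.04 for Camk2d. These 8 ratios did not overlap between the groups (exact two-sided permutation p of 0.1, adjusted 0.125 over 10 genes). The share of all tested genes separated by such a ratio was not computed, so this count is description only. By CPM, 57.4% of all tested genes separated the groups in either direction. The ratios of Camkk2 and Camk1g overlapped, with differences of -0.45 and -0.03 (exact permutation p of 0.2 and 0.3). For Camkk2, I/R replicate 1 lay within the sham range while replicates 2 and 3 lay below all sham libraries, and the difference was -0.68 without I/R replicate 1 and -0.28 without I/R replicate 2.

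**Figure D4:**
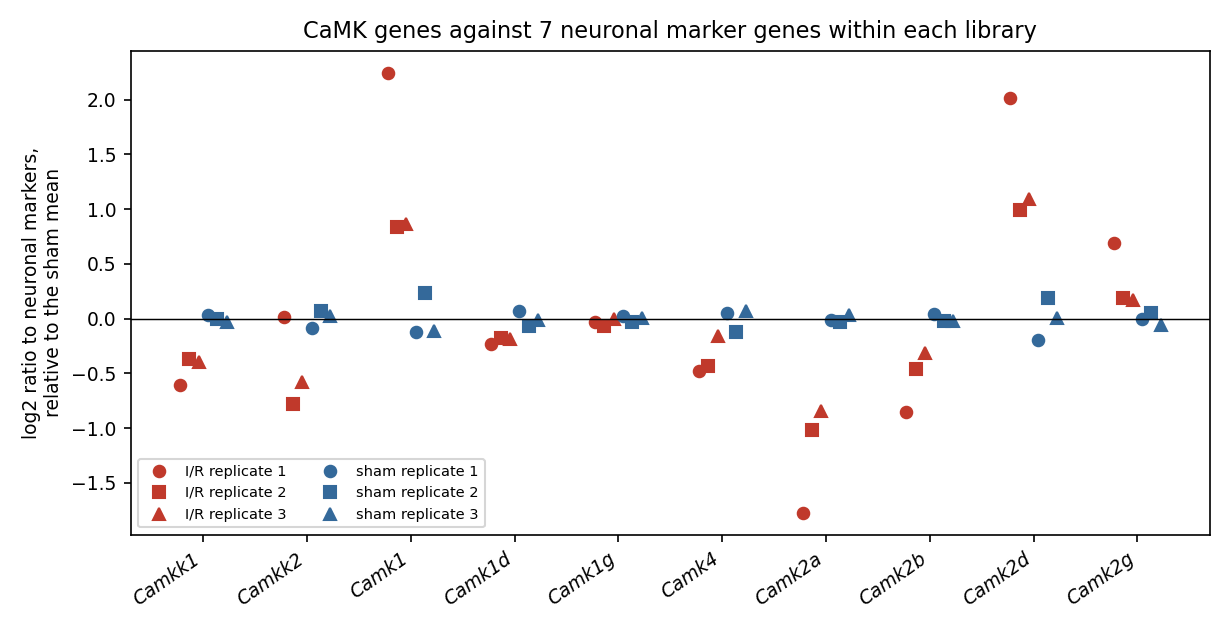
Log2 ratio of each CaMK gene to the mean of 7 neuronal markers within a library, relative to the sham mean of that ratio, with 1 point per library. Camk2a lies lowest in I/R, with a mean difference of -1.21, Camk2d and Camk1 lie above the sham libraries, and the groups overlap for Camk1g, with a mean difference of -0.03. The markers fell in I/R, so a gene with no change in FPKM also lies higher.

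Genes around the CaMKs were taken from fixed lists, in which 65 of 67 genes were named and tested, 30 fell and 6 rose, with a median log2 fold change of -0.30. Among all tested genes, 19.9% were lower and 21.8% higher. Of the calmodulin genes described here, Calm3 fell most, from 3391, 3698 and 3445 CPM in sham to 787, 1350 and 1646 CPM in I/R (-1.48 ± 0.26 in log2 units, SE; edgeR, adjusted p = 0.00372). Calm2 fell by 0.78 (SE 0.22), and Calml4, at -0.30 (SE 0.76), was not called. Calml4 stood at 4.87, 8.35 and 1.37 CPM in I/R and 1.25, 6.59 and 10.2 CPM in sham. It was lowest in the 2 libraries low in choroid plexus markers. Calm2 was not called without I/R replicate 2 or any 1 sham library (edgeR, adjusted p from 0.0529 to 0.079). Nrgn, encoding neurogranin, a postsynaptic protein that holds calmodulin at low calcium, fell by 1.84 (SE 0.47). Pcp4, another small calmodulin-binding protein, fell by 0.82 (SE 0.20), and Gap43 was not called at -0.06. Without sham replicate 2 neither Nrgn (edgeR, adjusted p = 0.0539) nor Pcp4 (edgeR, adjusted p = 0.0548) was called. Nrgn was also not called with no count filter (edgeR, adjusted p = 0.1). Both genes for the endogenous CaMKII inhibitor proteins fell, Camk2n1 by 1.07 (SE 0.27) and Camk2n2 by 0.63 (SE 0.10). Camk2n1 was not called without sham replicate 1 (edgeR, adjusted p = 0.0522).

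Partners and substrates of CaMKII at the synapse fell throughout the list: 10 of 10 tested genes, with a median of -1.07, against 19.9% lower among all tested genes. Grin2b, the NMDA receptor subunit that anchors active CaMKII, fell by 1.40 (SE 0.27) and Gria1, an AMPA receptor subunit that CaMKII phosphorylates, also by 1.40 (SE 0.20). Among 11 related kinases, 4 fell and none rose, against 19.9% lower and 21.8% higher among all tested genes. With so few genes, this is a count and not a result about the list. Camkv, a kinase-like protein without activity, fell by 1.75 (SE 0.36), and Pnck, a further CaMKI gene, by 1.44 (SE 0.13).

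Phosphatases counteract the kinases. Of 8 calcineurin genes, 3 fell and 1 rose, against 19.9% lower and 21.8% higher among all tested genes. Ppp3ca, the main catalytic subunit in brain, fell by 1.43 (SE 0.32) and Ppp3r1, the regulatory subunit, by 1.28 (SE 0.33), while Rcan1, an inhibitor of calcineurin, rose from 60.4, 61.5 and 57.6 CPM to 122, 100.2 and 91.3 CPM (0.81 ± 0.12 in log2 units, SE; edgeR, adjusted p = 0.00167). Of 7 other phosphatase genes, Ppm1e, which encodes a CaMK phosphatase, was the 1 that was called, with a fall of 0.91 (SE 0.19). Ppp3r1 was not called without sham replicate 1 (edgeR, adjusted p = 0.0504) or sham replicate 2 (0.0515), nor with no count filter (0.0609).

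Downstream of the cascade, the counts in both lists were small and near those shares of all tested genes, so they are given as counts of named genes and not as a result about the lists. Of 7 AMPK and AKT genes, 2 rose and 2 fell: the AMPK beta subunit genes Prkab1 and Prkab2 rose by 0.78 (SE 0.14) and 0.54 (SE 0.09), and Prkag2 and Akt1 fell by 0.68 (SE 0.16) and 0.38 (SE 0.08). Of 13 transcription factors, coactivators and class IIa histone deacetylases, which repress MEF2 targets and are CaMK substrates, 3 rose and 3 fell. Crtc1, a CREB coactivator of neurons, fell by 1.28 (SE 0.19) and Mef2a by 0.61 (SE 0.19), while Crtc2, a related coactivator, and Crem, a CREB family factor, rose by 0.92 (SE 0.14) and 0.91 (SE 0.14). Creb1 itself was not called at -0.15 (SE 0.10; edgeR, adjusted p = 0.264). Akt1 and Mef2a were not called with library size only as scaling, at -0.13 and -0.36, and Mef2a was not called without any 1 sham library (edgeR, adjusted p from 0.0656 to 0.105).

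**Figure D5:**
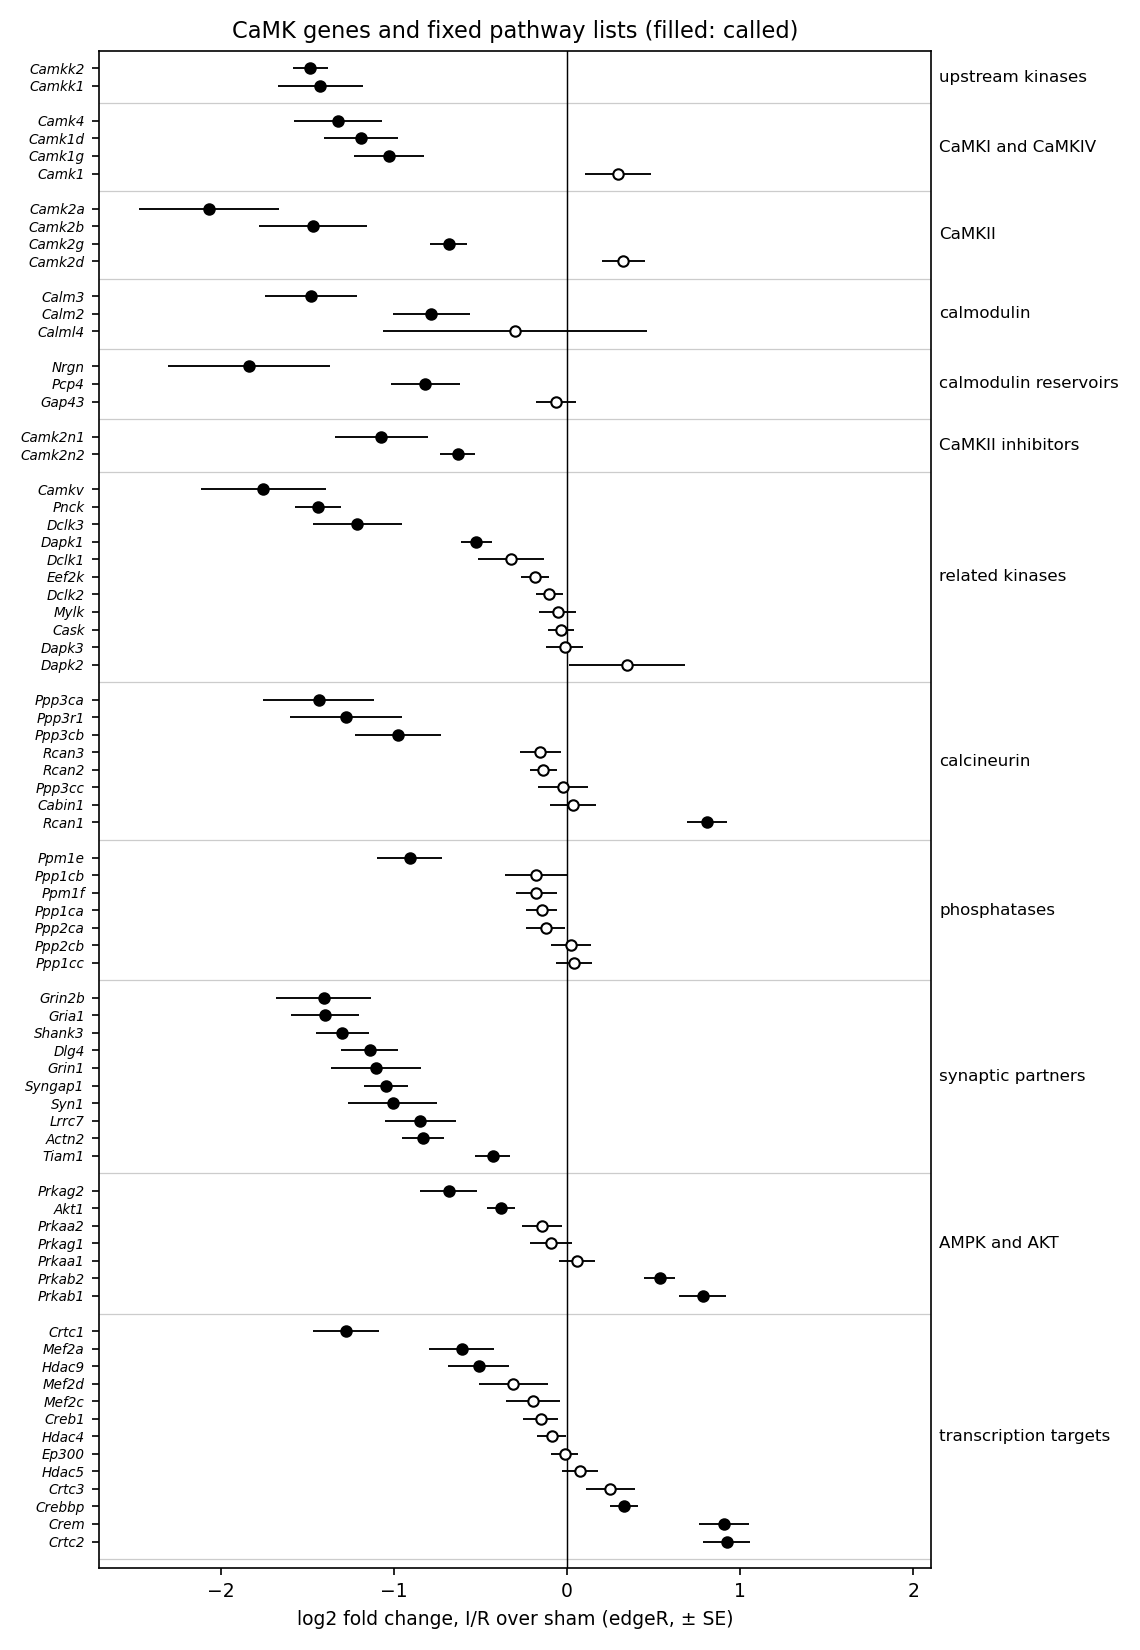
Log2 fold change (I/R over sham, edgeR, ± SE) of the 10 CaMK genes and of genes in fixed lists, grouped by list, with filled points for genes that were called. Synaptic partners lie wholly to the left of 0, while calcineurin, AMPK and transcription lists hold points on both sides.

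The genes most like each CaMK gene were found by the root mean square difference of their log2 CPM, centred on the gene's mean, over the 6 libraries and among 16184 other named genes. Camk2a was closest to Il16 (0.072) and Camk2b to Epha6 (0.043) and Wasf1 (0.050). Camk4 was closest to Gria3 (0.051) and Cdk14 (0.063), Camkk1 to Adcy9 (0.026) and Syt17 (0.027), and Camk1d to F730043M19Rik (0.012) and Rasgef1a (0.023). Camk1g was closest to Frmpd4 (0.017) and Cadps (0.029), and Camk2g to Nmnat2 (0.020) and Sdha (0.023). Camkk2 was closest to AI464131 (0.025) and Pld4 (0.027). The closest gene to Camk2a was less close than that of any other of the 8 genes.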

How the data were processed

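Per the study's methods, TopHat 2 placed the reads on an Ensembl genome and HTSeq counted them by gene; these raw counts were deposited by the authors. The submitters' processing notes name Bowtie 0.12.2 and the build mm8, but the gene identifiers and coordinates in the file are those of Ensembl's BALB/cJ annotation, although the mice were C57BL/6 per the labels and C57BL/6J per the study's methods. The deposited table also gives FPKM computed by the authors, with a gene length that for 8 of the 10 genes was well below the length column, and the authors' own fold changes and p-values, which were not used. Of 41390 lines, 4 were split and were rejoined.

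Counts were filtered (filterByExpr), scaled by TMM and tested with edgeR 4.0.16 in R 4.3.3 (glmQLFit, robust; glmQLFTest) without covariates, with Benjamini-Hochberg adjustment over all genes tested. The symmetric fold change limit of 1.2 is that of the study's figure legends for the hippocampus, while its methods give a different limit for lower genes. The adjusted p is stricter than the study's unadjusted p. The SE of a log2 fold change was taken as its absolute value over the root of the F statistic. CPM refers to TMM-scaled library sizes. Shares and ratios were computed from FPKM within a library and tested by exact two-sided permutation over 3 against 3 libraries. The fit was tested on simulated data. Alternatives included other scalings, DESeq2 1.42.0, limma 3.58.1 on voom weights and on log2 FPKM, other filters, the replicate number as a block and leaving out each library.

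All 10 CaMK genes were named in the text, with the genes of the calmodulin, calmodulin reservoir and CaMKII inhibitor lists, and up to 2 rises and 2 falls of each other list; some genes that this rule would name are not reported here. Creb1, and Ogg1 as an overlapping gene, were named after their values were seen. The CaMK genes and the lists were chosen with earlier results of these data known, and the ratios to neuronal markers, the fit without the 2 libraries low in choroid plexus markers and the use of the length column were added after seeing the data. Up to 2 named genes most like each called CaMK gene were also given. Kalrn, Atf1, Map2 and Ly6c2 were not analysed here. PCR copies of 1 molecule were not told apart.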

Additional observations from a re-analysis of the deposited data

How the results depend on the processing

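The fall of 8 CaMK genes kept its direction for each of these genes under all 20 alternatives, and each gene stayed called under all of them except Camk2g, which was not called with a fold change over 2. Leaving out 1 library gave 8 or 9 called CaMK genes, 9 without sham replicate 2 by the addition of Camk2d. In these fits 12.7% to 21.2% of all tested genes were lower, and 15.2% were higher without sham replicate 2. With library size only, tested genes had a median of 0.28 in log2 units against 0.03 with TMM, and higher and lower calls over all tested genes were 34.1% and 10.9%. With a fold change over 2, 2760 genes were called against 7756, and in the pathway lists 16 against 36, of which 16 were lower and 0 higher, because that rule is stricter. Leaving out 1 library gave 5330 to 7976 called genes, 26 to 37 in the pathway lists (21 to 31 lower, 5 or 6 higher). Calml4 changed sign at 0.022 and 0.053 on log2 FPKM plus 1 and plus 0.1, and ranged from -0.96 to 0.30 when 1 library was left out (0.11 without I/R replicate 3, 0.30 without sham replicate 3). Gap43 changed sign at 0.20 with library size only, at 0.19 on both FPKM scales and at 0.0065 without I/R replicate 2, with a range of -0.15 to 0.0065 when 1 library was left out. The ratio of Camkk1 to Camkk2 ranged from -0.22 to 0.29 when 1 library was left out, and was 0.29 without I/R replicate 1 and 0.05 without sham replicate 1; the cause was not tested. The differences in CaMKII share ranged, without 1 library, from -14.2 to -8.72 percentage points for Camk2a and from 1.52 to 3.67 for Camk2d. Counts in place of FPKM, or the length column, left the direction of every share and ratio as it was. Same-numbered libraries had correlations of deviations of -0.0967, 0.0556 and -0.184, against -0.171 to 0.267 for libraries with different numbers. These values gave no sign that the numbers pair the samples, but 3 libraries per group are too few to settle it. With the replicate number as a block, 6332 genes and 8 CaMK genes were called, and 33 in the pathway lists, where Mef2a was among those lost. Of all tested genes, 16.5% were lower with the block.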
